A study of Mus musculus with 12 samples.

Results

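The 10 circadian clock genes Clock, Arntl, Per1, Per2, Per3, Cry1, Cry2, Nr1d1, Nr1d2 and Dbp were followed through the H2A.Z peak lists of mouse nucleus accumbens. Every peak that the authors had assigned to 1 of these names was taken, at any distance from the gene's start site. This gave 24 of the 59069 peaks in the lists: 9 in the saline-saline list (SS), 11 in the saline-cocaine list (SC), 1 in the cocaine-saline list (CS) and 3 in the cocaine-cocaine list (CC). Of the 10 genes, 9 had a peak in at least 1 list and Nr1d1 had none.

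The nucleus accumbens is a ventral striatal part of the reward circuit, and H2A.Z, a histone H2A variant, flanks the start sites of genes. Chromatin of 12 samples was immunoprecipitated for H2A.Z and sequenced, 3 samples in each of 4 conditions. A condition's letters stand for its treatments in order, saline (S) or cocaine (C). The labels call SC acute, CS withdrawal and CC challenge. Strain, genotype, age, sex, dose, intervals and the hour of tissue collection are not stated by the labels. With a single peak list for each condition there is no spread between samples, no difference between conditions was tested, and intervals cover the counting of genes or peaks only. Because the tissue is a mixture of cell types, H2A.Z in fewer cells and less H2A.Z per cell cannot be told apart.

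The mammalian clock is a transcriptional feedback loop. CLOCK and BMAL1 (the product of Arntl) bind E-box elements and activate the Per, Cry, Nr1d and Dbp genes. PER and CRY proteins then repress CLOCK and BMAL1, while the REV-ERB receptors encoded by Nr1d1 and Nr1d2 repress Arntl, and DBP activates genes with D-box elements. The striatum is known to express these genes with a daily rhythm.

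The lists differed in size and in the kind of peak they hold, and these differences run through every comparison below. SS and SC held 24655 and 23170 peaks, and CS and CC held 6417 and 4827. Peaks whose middle lay within 1000 bp of a start site, called promoter peaks here, were 960 bp wide at the median in SS and 895 bp in SC. In CS the median was 111 bp and in CC it was 108 bp. Listed q-values reached 0.000544 in SS and 0.000572 in SC, but 0.051 in CS and 0.0625 in CC. Of 11 marker genes of medium spiny neurons, the main neurons of this tissue, 10 had a promoter peak in SS and 8 in SC. None of the 11 had a promoter peak in CS or CC. Of 5 oligodendrocyte markers 3 had one in SS, 3 in SC, none in CS and 1 (Olig1) in CC. Of 4 astrocyte markers 2 had one in SS and 1 in SC, with 0 in the other lists, and none of 4 microglial markers had one in any list. Among all RefSeq protein-coding genes the shares were 53.4% in SS, 50.9% in SC, then 17.2% in CS and 13.5% in CC. The part of list size, peak width and cell makeup in the results on clock genes was not tested. Counts of clock genes with every list cut to its 4827 strongest peaks are given in the section on processing.

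Promoter sequence was read from RefSeq on GRCm38.p6, the assembly of mm10, as windows of 250 bases before and 50 bases after a start site. Of the 10 clock genes 9 had such windows, 13 in all, and Per2 had none. The following 5 are shown because they span the range of the H2A.Z patterns: a gene with promoter peaks in all 4 lists, a gene with peaks in SS and SC alone, a gene with a further peak in CC, and 2 genes whose windows carried no peak. Capitals mark the E-box CACGTG and the D-boxes TTATGTAA and TTATGCAA in Cry1, Per3, Per1 and Nr1d1, and the CCAAT box, here always on the reverse strand and so read as ATTGG, in Arntl.
Cry1 (chr10:85185005-85185304, minus strand): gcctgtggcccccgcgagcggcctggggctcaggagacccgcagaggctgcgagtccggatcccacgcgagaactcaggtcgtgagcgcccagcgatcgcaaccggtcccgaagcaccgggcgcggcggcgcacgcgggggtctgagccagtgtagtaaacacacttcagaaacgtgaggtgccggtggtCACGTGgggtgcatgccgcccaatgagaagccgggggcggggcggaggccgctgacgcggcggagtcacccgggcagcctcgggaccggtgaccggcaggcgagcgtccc
Per3 (chr4:151044616-151044915, minus strand): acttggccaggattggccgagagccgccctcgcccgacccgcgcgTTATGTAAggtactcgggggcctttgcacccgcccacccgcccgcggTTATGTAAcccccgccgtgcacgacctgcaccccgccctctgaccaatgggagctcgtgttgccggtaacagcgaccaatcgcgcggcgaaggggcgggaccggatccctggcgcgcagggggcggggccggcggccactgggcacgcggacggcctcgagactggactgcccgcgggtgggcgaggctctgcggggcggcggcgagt
Arntl (chr7:113207215-113207514, plus strand): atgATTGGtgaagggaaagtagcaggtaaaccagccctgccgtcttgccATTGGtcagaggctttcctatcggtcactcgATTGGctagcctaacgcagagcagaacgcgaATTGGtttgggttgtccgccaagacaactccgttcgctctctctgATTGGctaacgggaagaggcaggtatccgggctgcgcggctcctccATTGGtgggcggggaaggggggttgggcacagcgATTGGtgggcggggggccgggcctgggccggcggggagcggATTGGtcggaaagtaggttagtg
Per1 (chr11:69098699-69098998, plus strand): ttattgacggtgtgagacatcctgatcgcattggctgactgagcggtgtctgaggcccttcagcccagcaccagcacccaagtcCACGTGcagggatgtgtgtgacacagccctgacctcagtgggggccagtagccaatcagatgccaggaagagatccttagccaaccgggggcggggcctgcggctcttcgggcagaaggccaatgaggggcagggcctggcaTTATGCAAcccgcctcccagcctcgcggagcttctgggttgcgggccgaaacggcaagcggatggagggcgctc
Nr1d1 (chr11:98775328-98775627, minus strand): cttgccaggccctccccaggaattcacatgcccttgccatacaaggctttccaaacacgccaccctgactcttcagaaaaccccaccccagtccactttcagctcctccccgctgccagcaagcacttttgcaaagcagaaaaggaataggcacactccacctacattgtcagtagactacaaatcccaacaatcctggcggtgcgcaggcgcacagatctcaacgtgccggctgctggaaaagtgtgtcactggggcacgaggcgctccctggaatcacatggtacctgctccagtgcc

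Searched on both strands, the E-box was found in the Cry1 window, starting 60 bases before the start site, and in the first Per1 window. It occurred in 7.15% of all 32851 RefSeq windows. D-boxes were found at 2 positions in Per3 and at 1 in Per1, against 1.66% of all windows with any. The element AGGTCA, to which receptors of the REV-ERB and ROR families bind as part of a longer site, was found in 1 window each of Arntl, Clock, Nr1d2 and Per1 and in 16.3% of all windows. The cAMP response element TGACGTCA was in none of the 13 windows and in 1.79% of all. The E-box of Cry1 and both D-boxes of Per3 lay under peaks in SS and SC and under none in CS or CC. The E-box and D-box of the Per1 window lay under no peak in any list. These matches describe letters in a window and not binding.

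In SS, 8 of the 10 clock genes carried a promoter peak, against 53.4% of RefSeq protein-coding genes. In SC 9 of 10 carried one, against 50.9%. In CS 1 of 10 did, against 17.2%, and in CC 3 of 10, against 13.5%. The 95% exact binomial interval over the 10 genes held the share of all coding genes in SS (44.4 to 97.5%), CS (0.253 to 44.5%) and CC (6.67 to 65.2%) and lay above it in SC (55.5 to 99.7%). The SC interval no longer did so with a window of 500 bp, which leaves out the weak Per1 peak and gives 8 of 10 (44.4 to 97.5%, against 49.2%), or with lists of equal length, which give 3 of 10 (6.67 to 65.2%, against 18.5%). Each of the 8 SS genes was present again in SC, where 88.2% of all SS promoter genes were. In CS 1 of the 8 had one (12.5%, 95% exact binomial interval 0.316 to 52.7%), against 28.8% of all SS promoter genes, and in CC 3 of the 8 (37.5%, 8.52 to 75.5%), against 22.7%. Both intervals hold the share of all genes. Over 8 genes they are too wide to tell whether clock genes depart from other promoters, and no conclusion is drawn. Of the 9 SS peaks of clock genes, 8 were overlapped by at least 1 bp in SC, 1 in CS and 3 in CC. The shares of all SS peaks were 75.7%, 20.3% and 15.7%. These sets are unlike, since all 9 were promoter peaks but only 15369 of the 24655 SS peaks were.

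**Figure D1:**
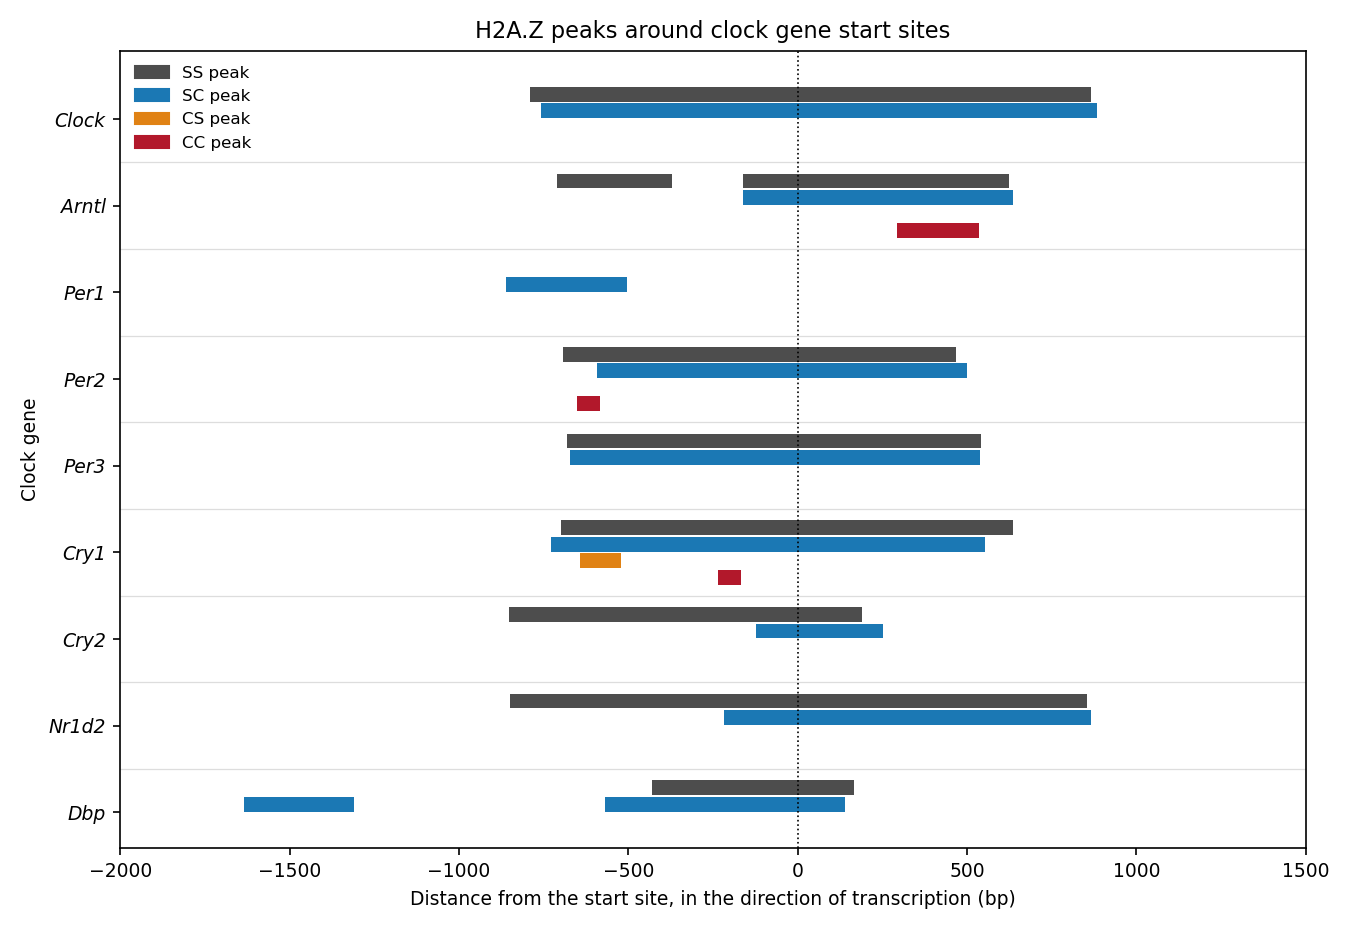
H2A.Z peaks around the start sites of the 9 clock genes that had any, drawn to scale as bars by list; the x axis is the distance in bp from the start site of the strongest SS peak (for Per1, of its SC peak). SS and SC bars mostly coincide, while the CS bar and the 3 CC bars are short and lie to the side of the start site.

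The activators Clock and Arntl both carried H2A.Z in SS and SC, above the median of the promoter peaks of each list. At Clock, which encodes the DNA-binding partner of BMAL1 (ENSMUSG00000029238), the fold enrichment over background was 6.91 in SS and 6.74 in SC. The SS peak was 1656 bp wide (chr5:76303681-76305337), its middle 39 bp after the start site, and 97% of the joint span of the SS and SC peaks was shared. No peak stood there in CS or CC, where the nearest peaks of any name were 224388 and 163711 bp from the start site. At Arntl (ENSMUSG00000055116) the SS peak reached 9.26, the SC peak 12.1 and the CC peak 5.06, with no peak in CS. Folds of different lists are on different scales, and each is best read within its list. Clock stood at percentile 66.2 of the promoter peaks of SS and at 56 of those of SC. At Arntl the SS peak stood at percentile 81.7 of the promoter peaks of SS, the SC peak at 85.4 and the CC peak at 62.5.

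The main Arntl peak began before the start site and reached into the gene. It spanned chr7:113207395-113208182 in SS and differed from the SC peak by 1 base at one end and 12 at the other, so that 98.4% of their joint span was shared. The CC peak (chr7:113207851-113208093, 242 bp, q 0.000213) lay wholly inside the SS peak, with its middle 415 bp after the start site and its downstream end 89 bp short of that of the SS peak. A second, weak SS peak of Arntl (2.63, chr7:113206847-113207187) lay upstream of the start site, was at percentile 1.1 of SS promoter peaks and had no SC counterpart. It was the 1 SS peak of a clock gene that was not overlapped in SC.

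Among the repressors, Per2, Per3 and Cry1 had promoter peaks above the list median in SS and SC, Cry2 had a weak one, and Per1 had one in SC alone. PER proteins carry CRY proteins to CLOCK and BMAL1, and the CRY proteins are the stronger repressors. The SS peak of Per2 (ENSMUSG00000055866, chr1:91458856-91460017) had a fold enrichment of 8.94, the SC peak 11.4 and the CC peak 4.64, with none in CS. The CC peak (chr1:91459908-91459975, 67 bp, q 0.00136) had its middle 617 bp before the start site. It lay inside the SS peak, its upstream end 42 bp short of that of the SS peak, and shared 8 bp with the SC peak. Per2 also had the single distal peak of the 24, an SC peak inside the gene (3.4, chr1:91436562-91436925), 22581 bp from the start site.

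Per3 (ENSMUSG00000028957), the PER gene whose window above holds a pair of D-boxes, had the strongest SS peak of the clock genes at 9.88 (chr4:151044125-151045345) and 10.3 in SC. These 2 peaks differed by 1 bp at the downstream end and by 7 bp upstream, and the 99.3% of their joint span that was shared exceeded that of 99.6% of the 13986 such pairs of promoter peaks. The nearest CS and CC peaks of any name were 129893 and 79623 bp from its start site.

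Cry1 (ENSMUSG00000020038) was the clock gene with a promoter peak in all 4 lists, a pattern held by 10.6% of the 14993 genes with a promoter peak in any list. Its SS peak (chr10:85184428-85185762) had a fold enrichment of 8.34 and its SC peak 9.58, while the CS peak had 4.31 and the CC peak 3.74. The SS and SC peaks covered the whole window printed above. The CS peak (chr10:85185585-85185708, 123 bp, q 0.00103) had its middle 582 bp before the start site and its upstream end 54 bp short of that of the SS peak. The CC peak (chr10:85185231-85185298, 67 bp, q 0.016) had its middle 200 bp before the start site, over the first part of the printed window and upstream of its E-box. The CS and CC peaks of Cry1 were 287 bp apart and did not overlap. Of the 1778 genes with promoter peaks in both CS and CC, 40.2% likewise had no CS peak overlapping a CC peak. The CC peak of Cry1 was among the weakest of its list, at percentile 1.85 of fold enrichment.

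Cry2 (ENSMUSG00000068742) carried a weak peak, 3.19 in SS (chr2:92433854-92434896) and 3.32 in SC (chr2:92433791-92434166). These folds stood at percentiles 7.63 and 10.2 of the promoter peaks of the respective lists. The SC peak was 375 bp wide against 1042 bp in SS and lacked the upstream part, so that 28.2% of the joint span was shared, the least of the 8 genes held. At Per1 (ENSMUSG00000020893), an immediate early member of the clock that light and cAMP signals induce, no peak was assigned in SS, CS or CC. The SC list had a weak peak there (3.44, percentile 12, q 2.43e-16, chr11:69094355-69094712), 684 bp before the start site the authors used. The other 2 Per1 start sites, those of the RefSeq windows, lay 4237 and 5440 bp from this SC peak. In SS the peak nearest to any Per1 start site belonged to Vamp2, a synaptic vesicle gene, 6370 bp away.

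The REV-ERB genes stood apart from each other. Nr1d2 (ENSMUSG00000021775), encoding REV-ERB beta, had a peak of 5.13 in SS (chr14:18238177-18239881, the widest of the clock genes at 1704 bp) and of 8.41 in SC (1084 bp). The SC peak lacked the upstream part of the SS peak, with its middle 305 bp after the start site against 2 bp in SS, although the authors measured these from start sites 20 bp apart (18239011 and 18239031). Nr1d1, encoding REV-ERB alpha, carried no peak in any list. From its start site at chr11 position 98775377 the nearest SS peak was that of Msl1, 19215 bp away. The nearest SC peak was a weak one without an assigned gene (2.91), 7500 bp away. In CS and CC the gaps were 45510 and 102138 bp. The Nr1d1 window shown above held neither an E-box nor a D-box as spelled here.

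Dbp (ENSMUSG00000059824), the D-box factor and an output of the loop, had its peak away from its first start site. The SS peak (7.41, chr7:45706674-45707270) and the stronger of the SC peaks of Dbp (6.82, chr7:45706536-45707243) surrounded an internal start site at 45707104. The RefSeq start at 45705247 lay 1427 bp from the SS peak. A second SC peak (2.22, chr7:45705470-45705793) lay 223 bp from that start and was at percentile 0.109 of SC promoter peaks. The nearest CS and CC peaks were 66607 and 22391 bp from the RefSeq start.

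**Figure D2:**
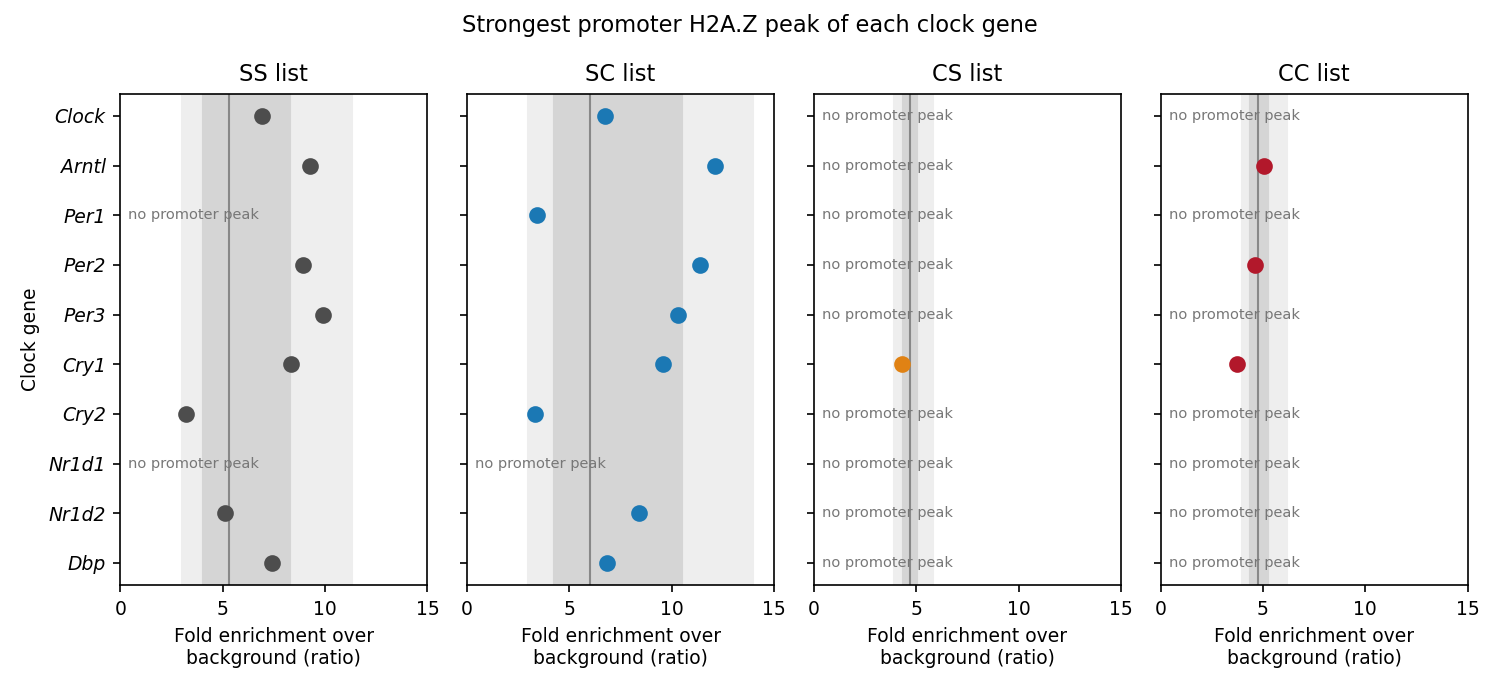
Authors' fold enrichment of the strongest promoter peak of each clock gene, 1 panel per list; grey bands give the middle 50% and 90% of all promoter peaks of that list and the grey line their median, because folds cannot be set side by side between lists. Cry2 and, in SC, Per1 lie at the low end, and Cry1 in CC lies below the 90% band.

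Within SS and SC the strongest promoter peak of most clock genes was in the upper part of its list. It was ranked among all promoter peaks, including the weaker further peaks of genes with several. The share of all genes whose strongest peak lay above the median was not computed. Of the 8 genes with an SS promoter peak 6 had a fold enrichment above the median of SS promoter peaks, and of the 9 in SC 7 did. The percentiles of these strongest peaks ran from 7.63 (Cry2) to 86.4 (Per3) in SS and from 10.2 (Cry2) to 85.4 (Arntl) in SC. Further promoter peaks of the same genes ranked lower, that of Arntl at 1.1 in SS and that of Dbp at 0.109 in SC. In CS the Cry1 peak stood at percentile 22.6. In CC the 3 peaks stood at 62.5 (Arntl), 37.7 (Per2) and 1.85 (Cry1). All 4 CS and CC peaks of clock genes had a q-value above 1e-05, as did most peaks of these lists, of which 17.8% in CS and 19.6% in CC were at or below it, against 97.7% in SS.

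The CS and CC peaks sat off the start site. Their middles were 200 to 617 bp from it, whereas 4 of the 8 strongest SS peaks and 5 of the 9 in SC had their middle within 100 bp. The same direction was seen over all promoter peaks, of which 46.8% of SS and 46.3% of SC but 20.1% of CS and 20.9% of CC were within 100 bp. All 4 lay wholly inside the SS peak, as did 96.7% of CS and 98% of CC promoter peaks that touched an SS promoter peak. For Cry1 in CS and for Per2 and Arntl in CC the nearer end of the SS peak was 42 to 89 bp away. For Cry1 in CC it was 464 bp away. Among all peaks so enclosed, 12.6% in CS and 11.2% in CC lay within 100 bp of an end, and the median distances were 244 and 256 bp. The 3 placements near an end were picked out after their values were seen.

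Of the 8 clock genes with promoter peaks in both SS and SC, 5 (Clock, Per3, Cry2, Nr1d2 and Dbp) had none in CS or CC, as did 57.8% of the 11987 such genes overall. Arntl and Per2 had one in CC and not in CS (11.2% overall), Cry1 in both (13.2%), and none in CS and not in CC (17.8%). In SS the 3 genes with a CS or CC peak had folds of 9.26 (Arntl), 8.94 (Per2) and 8.34 (Cry1). Of the 5 without one Per3 lay above these at 9.88, and Dbp (7.41), Clock (6.91), Nr1d2 (5.13) and Cry2 (3.19) lay below.

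**Figure D3:**
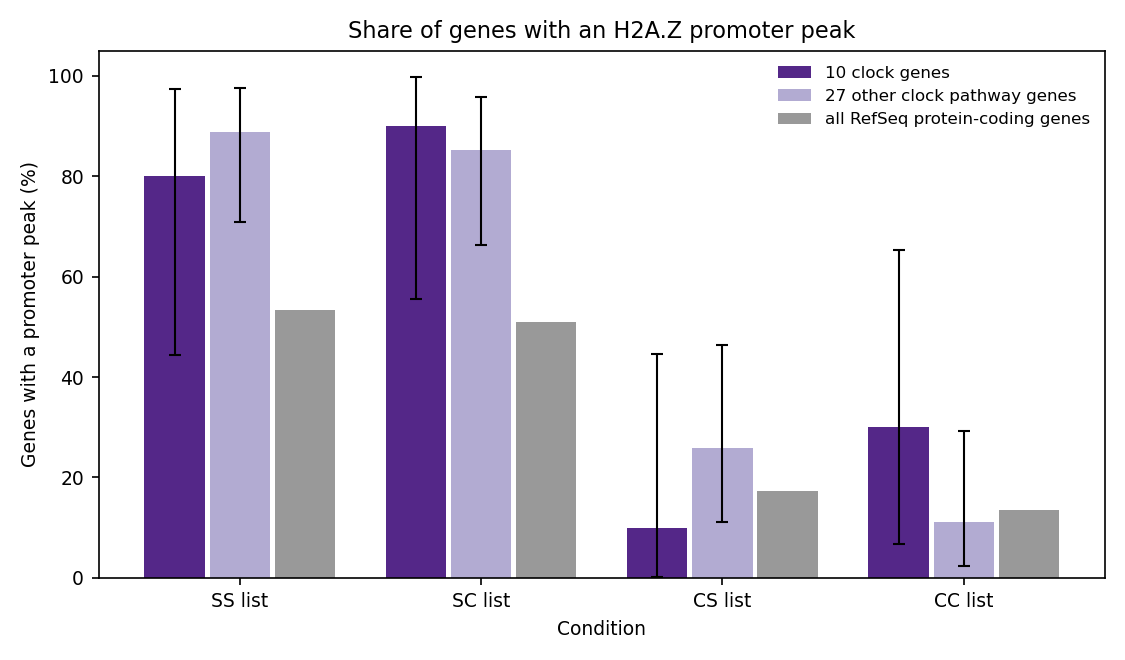
Share of genes with an H2A.Z promoter peak in each list, for the 10 clock genes, 27 other genes of the clock pathway and all RefSeq protein-coding genes; error bars are 95% exact binomial intervals over genes, with none drawn for the last group. Both clock groups have higher bars than all coding genes in SS and SC; the intervals hold the grey value for both groups in CS and CC and for the 10 clock genes in SS.

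A list of 27 other genes of the clock pathway also had more promoter peaks in SS and SC than in CS and CC, as all coding genes did. SS had a promoter peak at 24 of them (88.9%, against 53.4% of coding genes) and SC at 23 (85.2%, against 50.9%). CS had one at 7 (25.9%, against 17.2%) and CC at 3 (11.1%, against 13.5%). Of the 24 SS genes 22 were held in SC (91.7%, 73 to 99%), 7 in CS (29.2%, 12.6 to 51.1%) and 3 in CC (12.5%, 2.66 to 32.4%), against the 88.2%, 28.8% and 22.7% of all SS promoter genes. Of the 22 with SS and SC peaks, 4 had one in CS and not in CC and none had one in CC and not in CS. The shares of all genes with SS and SC promoter peaks were 17.8% and 11.2%. Among the 8 clock genes with both, the counts were 0 and 2. The difference between these gene lists was not tested.

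Among partners of the activators, Npas2, which can replace Clock in forebrain, had 10.9 in SS and 12.2 in SC and nothing in CS or CC. Arntl2, the paralogue of Arntl, had promoter peaks in all 4 lists (SS 6.33, SC 5.69, CS 5.87, CC 4.22). Arntl itself lacked the CS peak. Rora, whose product activates Arntl through the sites that REV-ERB proteins occupy, had promoter peaks in SS (8.29) and SC (12.1). Its relative Rorb had a weak peak (3.24) in SS alone. The bZIP factors Tef, Hlf and Nfil3, of which the first pair act like DBP and the last represses the same D-boxes, all had promoter peaks in SS (7.64, 6.97 and 7.28) and SC (8.16, 12.3 and 8.36). Like Dbp they lacked any in the other lists.

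Of the E-box repressors Ciart had promoter peaks in SS (4.55, percentile 35.1), SC (4.1, percentile 22.7) and CS (4.66, percentile 46.6). Bhlhe40 had peaks in SS and SC centred 1233 bp before its start site, outside the promoter limit, and Bhlhe41 had no peak. All 4 kinase genes carried promoter peaks in the lists SS and SC alone, the strongest in SS being Csnk1d (10.8) and Csnk1e (10.3), whose products mark PER proteins for degradation, followed by Gsk3b (6.85). Of the genes for ubiquitin ligases and the protease Usp2, Fbxw11 (10.5 in SS) and Fbxl21 (5.83) had CS promoter peaks (4.68 and 5.05), while Usp2 (7.63) had none, and none of these 3 had one in CC. The partners of the PER and CRY complex held most of the rest. Wdr5, a histone methylation cofactor, had 11.4 in SS and 12.8 in SC, then 6.69 in CS and 5.59 in CC, and its CS peak was at percentile 98.9 of that list. Tipin had promoter peaks in all 4 lists (6.6, 8.94, 4.35 and 6.01), Timeless in SS, SC and CS (8.14, 11, 4.08), and Sfpq in SS and SC (9.59 and 9.77). Nono had promoter peaks in SC alone (4.46 at the strongest). The outputs Nampt, an enzyme of NAD synthesis, and Noct, a rhythmic phosphatase, had promoter peaks in SS (8.15 and 9.99) and SC (10.5 and 10.6).

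**Figure D4:**
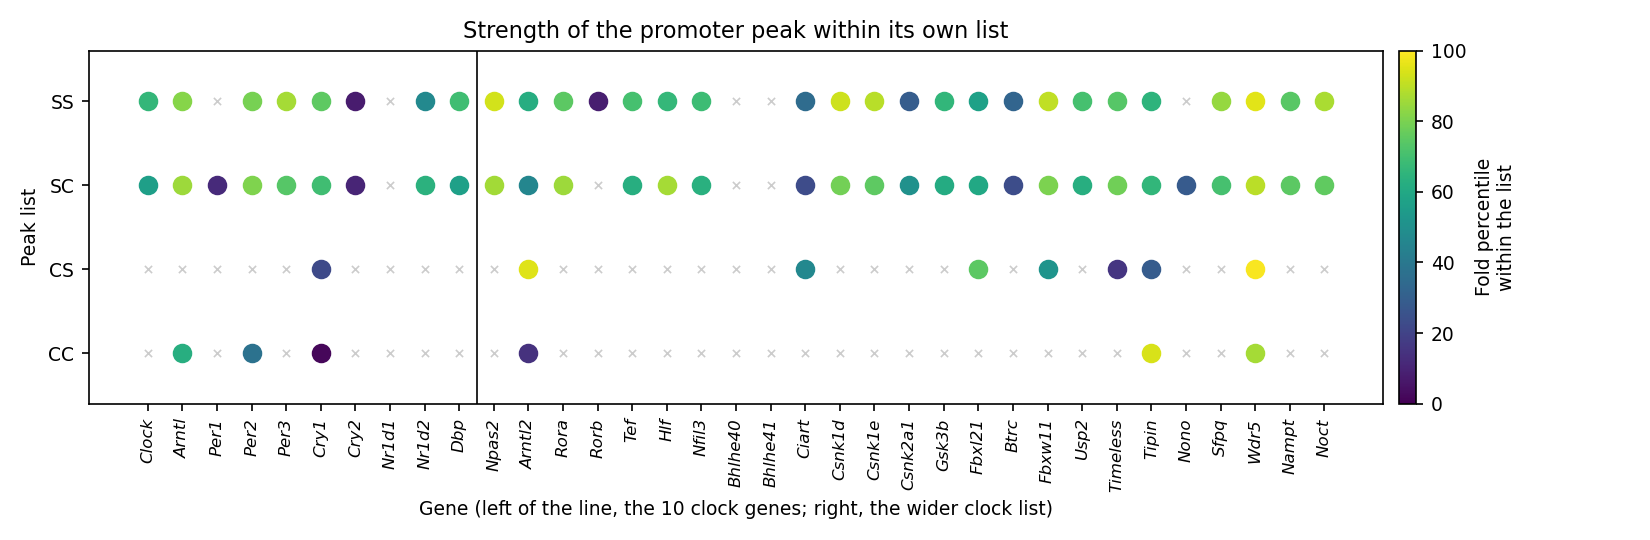
Percentile of each gene's strongest promoter peak among the promoter peaks of its own list (colour, 0 to 100), for the 10 clock genes and 25 of the 27 other pathway genes; a cross marks no promoter peak within 1000 bp. The SS and SC rows are nearly filled, and CS and CC hold 8 and 6 filled points.

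Promoter windows of clock genes were also compared by CG dinucleotides, which the choice of genes did not use. Windows under an SS peak had a median of 23 across the genome and those without one a median of 3, out of 300 bases. The windows at the main start sites of Clock, Per3 and Cry1 had 46, 41 and 38, more than in 98.4%, 96.5% and 95% of all windows. A further 2 Clock windows had 42 and 9. Cry2 had 30, and the Arntl and Nr1d2 windows had 20 to 22. The windows without a peak in any list had 9 (Nr1d1), 16 and 21 (Per1) and 18 (Dbp), so those of Per1 and Dbp lay nearer to the windows with a peak than to those without. In all 9 of the 13 windows touched an SS peak (40.1% of all windows), 9 an SC peak (38%), none a CS peak (4.65%) and 1, that of Cry1, a CC peak (3.26%). The windows touched in SS and SC were those of Clock, Arntl, Cry1, Cry2, Nr1d2 and Per3. All Clock windows touched 1 and the same peak in each of these lists, as did the Arntl windows, so they are not separate.

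**Figure D5:**
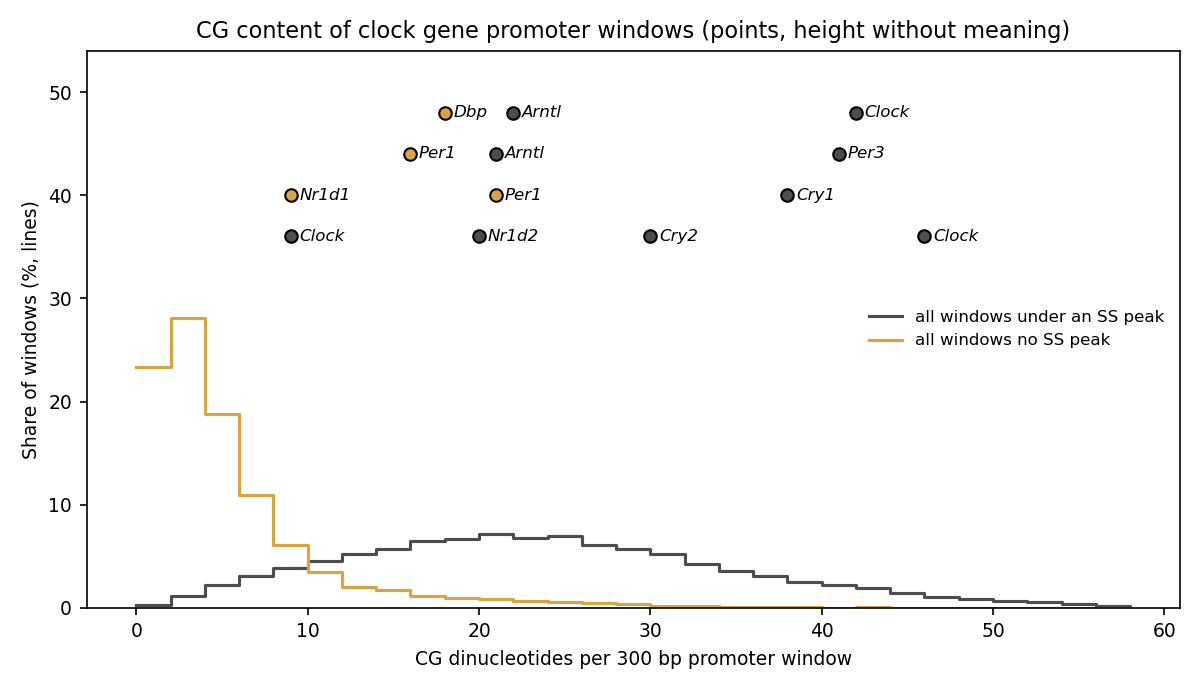
CG dinucleotides per 300 bp promoter window: lines give the share of all RefSeq windows with and without an SS peak, and points give the 13 windows of clock genes, dark where an SS peak touches the window and yellow where none does. The yellow points lie between 9 and 21.

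Genes with the profile most like each clock gene over the 4 lists were found by the distance between their promoter peak percentiles, with 0 for no peak. Per3 was closest to Rnf126 (0.32 percentile points), Cry2 to Chga (0.309), Clock to Pde2a (0.5), Nr1d2 to Supt3 (0.714) and Dbp to Thra (0.785). Per2 was closest to Tsen54 (1.56), Arntl to Ptpre (1.79) and Cry1 to Ppm1a (3.05). Ppm1a has no CC promoter peak and so scores 0 there, close to the 1.85 of the weak CC peak of Cry1. The first 5 had 47 to 166 genes within 5 points, and Arntl, Per2 and Cry1 had 3, 5 and 2. These counts cannot be compared, because the first 5 score 0 in CS and CC and only their SS and SC percentiles need matching. The lists with a promoter peak at Arntl and Per2 were those of 8.95% of the 14993 genes with any. For Cry1 the share was 10.6%.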

How the data were processed

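H2A.Z chromatin immunoprecipitation was analysed in 12 samples of mouse nucleus accumbens, grouped by title into 4 conditions of 3. The data were 1 annotated peak list per condition, deposited by the authors. The submitters' processing notes name the build mm10 and, as tools, MACS2 with cutadapt, SAMtools and HISAT. Tool versions, peak-calling settings, the control library and how the 3 samples were combined were not given in the sources used here. Per the file headers the values of a peak are its fold enrichment (a ratio to background) and its q-value. The authors deposited the assigned gene, region class and signed distance of each peak, and on testing the distance was that of the peak's middle from the transcript start within 1 bp for 100% of annotated peaks. Peak coordinates are those of the lists, which do not say if counting begins at 0 or 1, so overlaps with RefSeq windows may be off by 1 bp. Read depth and the total histone H3 libraries were not analysed here.

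Clock genes were matched by gene name. A promoter peak had its middle within 1000 bp of the start site. Overlap (at least 1 bp) was found with bedtools 2.31.1, and other values with Python 3.11.15, pandas 2.3.3 and scipy 1.17.1. Fold enrichment was used to rank peaks within a list, as a percentile of its promoter peaks. Intervals are 95% exact binomial (Clopper-Pearson). With 1 list per condition no test between conditions and no paired fit could be made. The background is 21900 RefSeq protein-coding genes of GRCm38.p6, matched by symbol (89.2% of 16758 names matched any RefSeq symbol). Overlap and motif counts were tested on simulated data. The clock genes, the pathway list and the markers were chosen with earlier results of these data known. Named genes were the 10 clock genes, the 3 strongest SS genes of each pathway role and any with a CS or CC promoter peak, and the gene closest in profile to each clock gene with an SS promoter peak. Bhlhe40, Bhlhe41, Nono, Vamp2 and Msl1 were named after their values were seen, and the CCAAT box was searched after the Arntl sequence had been read. A few genes that the rule would name are not reported here. Alternatives were a q-value limit, lists of equal length, other start site windows, assignment by position and a stricter overlap.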

Additional observations from a re-analysis of the deposited data

How the results depend on the processing

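No paired analysis was possible because each condition is 1 peak list without values per sample, and for the same reason no sample could be left out in turn. Of 84 values recomputed under the alternatives 60 stayed within 1.5 times the count reported or inside its interval, and 24 did not. None moved when peaks were assigned to start sites by position, when the window was widened to 3000 bp, or when overlap had to reach 50% of the narrower peak. With a window of 500 bp the CS count of clock genes was 0, against 15.6% of coding genes. The percentage of SS genes held there was also 0%, against 27.1% of all SS promoter genes. When peaks needed a −log10 q of 5 or more, clock genes with a promoter peak and clock gene peaks at any distance were 0 in CS and 0 in CC, and 0% of SS genes or peaks were held or overlapped in either, against 4.37% and 3.57% of all SS promoter genes. Under that limit only 2.44% of coding genes had a promoter peak in CS and 2.04% in CC. The wider list had 2 genes in CS (7.41%, with 8.33% held) and 1 in CC (3.7%). The width and position of clock gene peaks in CS and CC could not be given, since none passed. With every list at the 4827 strongest peaks, clock genes with a promoter peak, and their peaks, were 4 in SS (Arntl, Per2, Per3 and Cry1), 3 in SC (Arntl, Per2 and Per3), 0 in CS and 3 in CC, against 18.7%, 18.5%, 13.5% and 13.5% of coding genes. Of these 4 SS genes 3 were held in SC, 0% in CS (0 to 60.2%) and 75% in CC (19.4 to 99.4%), and overlapped peaks gave the same shares in CS and CC. All SS promoter genes under this limit were held at 86.4% in SC, 22.1% in CS and 23.1% in CC. These shares lie inside the intervals over the 4 genes, which are too wide to tell a difference. The wider list then had 12 genes in SS (44.4%) and 11 in SC (40.7%). The presence of CS and CC peaks at clock genes therefore rests on peaks with a q-value above 1e-05.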

Other observations

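The Arntl window printed above held 8 CCAAT boxes on both strands together, 7 of them in its second, overlapping window. It was the only 1 of 32851 RefSeq windows with at least 8, and 4 windows of 3 genes (Arntl, Gm1096 and Gm35380) had at least 7. At least 1 was found in 37.4% of windows. CCAAT boxes are bound by NF-Y, a factor common at promoters. Of the 8 in Arntl, 3 lay under the SS and SC peaks, none under the CC peak, and 5 in the gap between the weak upstream SS peak and the main SS peak, where no list had a peak over them. The motif was chosen after the sequence had been read, and no test was made.

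Genes beside the clock genes, chosen after their values were seen, also had peaks. Nearness here is to the body of the clock gene and not to its start site. Hes6, within 10 kb of the downstream end of Per2, had promoter peaks in SS (8.24), SC (10.9) and CC (4.24) and none in CS. These were the same lists as for Per2, a pattern of 11.2% of genes with promoter peaks in both SS and SC. The Hes6 SS peak (chr1:91412422-91413999) was far from the Per2 start site at 91459324. Mterf2, within 10 kb of the downstream end of Cry1, had them in SS (5.997), SC (5.84) and CS (5.02) but not CC. That pattern was held by 17.8% of genes with promoter peaks in both SS and SC. Near Cry2, Mapk8ip1 was strong in SS (13.4) and SC (12) and had none in CS or CC. Beside Dbp, a peak assigned to Rpl18 in SS (5.1) overlapped one assigned to Sphk2 in SC (4.15).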
